A study of Mus musculus with 6 samples.

Results

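Genes grouped as thyroid hormone and cone pattern regulators were examined in RNA-seq libraries of the whole retina of mice at P21 (postnatal day 21). The role of each in cones was not tested. They are 10 genes: the thyroid hormone receptors *Thrb* and *Thra*, the retinoid X receptors *Rxrg*, *Rxra* and *Rxrb*, the regulators *Sall3*, *Hr* and *Eya1*, and the orphan receptors *Nr2f1* and *Nr2f2*. Every mRNA transcript that carries one of these symbols was taken, each isoform on its own, and 12 transcripts of 15142 were found. All 10 genes had a transcript, with 2 for *Thrb*, 2 for *Rxrg* and 1 for each other gene, and none had one in the noncoding RNA or pseudogene tables. The libraries came from *Nrl*-/- mice, a germline knockout on a C57Bl/6J background (n = 3), and from WT mice, C57Bl/6J in the methods and C57BL/6 in the labels (n = 3). The methods describe the libraries as biologic replicates from separate mice, and litters are not given.

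NRL is the transcription factor that commits photoreceptor precursors to the rod fate, and in mice without it the photoreceptors take on features of cones, mostly of the short-wavelength (S) type. Thyroid hormone acts through nuclear receptors that bind DNA as a pair with a retinoid X receptor. In the mouse retina the beta receptor is needed for medium-wavelength (M) opsin and holds back S opsin, and RXR gamma also holds back S opsin. Without hormone these receptors recruit corepressors, and with hormone they recruit coactivators.

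*Thrb* and *Rxrg* are the receptor genes with 2 measured transcripts, and RefSeq gave 2 promoter entries for each, so the 250 bases before each of these starts are shown. *Thrb* lies at chr14:18493474-18870602 on the plus strand of NCBIM37 (mm9, the build of the study), and its starts, taken from RefSeq on GRCm38.p6, are 320684 bases apart. *Rxrg* lies at chr1:169528515-169569754 on the plus strand, and its starts are 19903 bases apart. Each window matched NCBIM37 at 1 place. GENCODE has a further *Thrb* start, that of Thrb-202, which had no RefSeq entry here. The files do not tie a measured transcript to a start. Capitals mark AGGTCA (the half-site of nuclear receptors), TAATCC (a core bound by the cone-rod homeobox factor CRX) and TATAAA (the promoter box that the general factor TBP binds), on either strand; the motifs did not overlap.
Thrb, GRCm38.p6 chr14:17660710-17660959, before the start of Thrb-002: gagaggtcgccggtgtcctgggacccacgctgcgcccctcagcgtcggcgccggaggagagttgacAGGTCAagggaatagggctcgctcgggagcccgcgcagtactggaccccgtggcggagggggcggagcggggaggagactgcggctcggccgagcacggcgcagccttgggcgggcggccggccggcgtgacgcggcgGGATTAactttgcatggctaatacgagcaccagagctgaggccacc
Thrb, GRCm38.p6 chr14:17981394-17981643, before the start of Thrb-001: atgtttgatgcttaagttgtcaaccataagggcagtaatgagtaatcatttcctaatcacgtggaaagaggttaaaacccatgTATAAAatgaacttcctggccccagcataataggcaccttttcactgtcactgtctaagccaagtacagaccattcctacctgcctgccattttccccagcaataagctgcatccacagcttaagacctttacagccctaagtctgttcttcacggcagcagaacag
Rxrg, GRCm38.p6 chr1:167598112-167598361, start 22 bases from that of Rxrg-001: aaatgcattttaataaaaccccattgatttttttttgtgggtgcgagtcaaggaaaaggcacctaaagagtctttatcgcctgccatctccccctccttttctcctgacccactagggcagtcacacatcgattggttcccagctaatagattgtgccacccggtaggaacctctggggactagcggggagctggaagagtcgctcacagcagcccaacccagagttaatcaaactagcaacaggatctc
Rxrg, GRCm38.p6 chr1:167618015-167618264, start 44 bases from that of Rxrg-004: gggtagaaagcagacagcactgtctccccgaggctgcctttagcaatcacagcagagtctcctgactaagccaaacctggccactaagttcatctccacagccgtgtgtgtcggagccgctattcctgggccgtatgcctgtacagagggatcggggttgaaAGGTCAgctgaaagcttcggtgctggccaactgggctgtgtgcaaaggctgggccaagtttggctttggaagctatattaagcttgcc
The first *Thrb* window held 1 AGGTCA and 1 TAATCC, read on the other strand as GGATTA, and its GC content was 71.6%. The second held 1 TATAAA, and its share of G and C was 44%. Of the *Rxrg* windows, the first held none of these letters and the second held 1 AGGTCA. Among the same 250 bases of all 32851 RefSeq promoter entries, 14% held AGGTCA, 6.25% TAATCC and 12.4% TATAAA. A match describes the letters and is not evidence of binding.

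Values are FPKM, fragments scaled to exon length and to the number mapped in the library. FPKM is per length, so levels of genes are set side by side here, within limits. The paper reports that this alignment gave values too low for some housekeeping genes with pseudogenes, such as *Gapdh*. Whether this holds for the members was not tested. The values were recovered from the deposited log2(FPKM + 1). Log2 fold changes are differences on that scale, *Nrl*-/- minus WT, which understates the change of a gene near or below 1 FPKM. Of the 10 genes, *Thra* lies on chromosome 11, *Rxra* on 2, *Rxrb* on 17, *Sall3* on 18, *Hr* on 14, *Eya1* on 1, *Nr2f1* on 13 and *Nr2f2* on 7.

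*Nrl* itself, transcript NM_001136074, had 0.919, 0.879 and 0.959 FPKM in the *Nrl*-/- libraries, against 552, 583 and 500 FPKM in the WT libraries. Rod markers, which include the knocked-out *Nrl* itself, fell in 11 of 11 genes. Their summed level was 147 to 165 FPKM in *Nrl*-/- libraries and 7020 to 7790 FPKM in WT libraries. Cone markers rose in 9 of 9 genes, with sums of 6360 to 6540 FPKM in *Nrl*-/- libraries and 469 to 569 FPKM in WT libraries. Libraries of one genotype correlated at r = 0.993 to 0.996 in *Nrl*-/- and 0.986 to 0.989 in WT over transcripts. WT replicate 2 stood apart in *Xist* (NR_001463, the RNA that silences an X chromosome in females), at 186 FPKM with at most 0.0497 FPKM in the other 5 libraries. Without WT replicate 2 the counts of member transcripts called were again 7 higher and 1 lower.

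At an adjusted p under 0.05 (limma, over all 15142 transcripts), 7 of the 12 member transcripts were higher in *Nrl*-/- retina, 1 was lower and 4 did not pass. Of all transcripts, 36.8% were called, 26.7% higher and 10.1% lower. The median log2 fold change was 0.46 over the member transcripts and 0.08 over all. All *Nrl*-/- libraries lay above all WT libraries for 8 member transcripts and below them for 2, against 34.9% and 14.2% of all transcripts. In a whole retina, more cells of a type and more RNA per cell cannot be told apart.

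**Figure D1:**
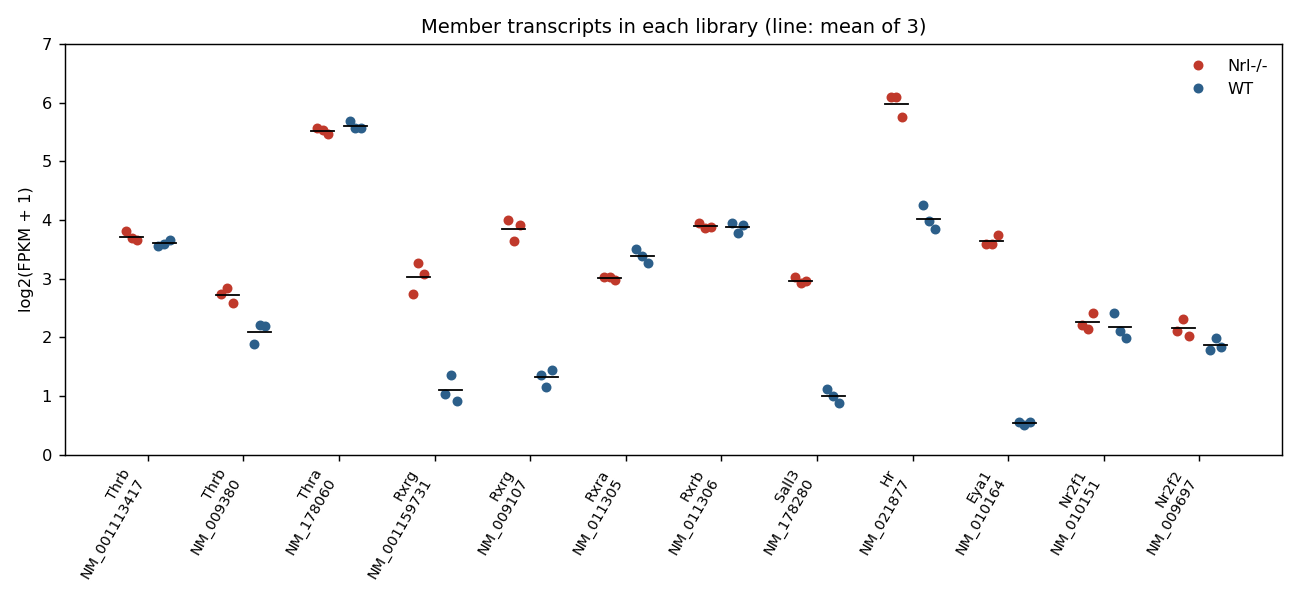
Level of each member transcript as log2(FPKM + 1) in each library, with *Nrl*-/- libraries (red) left of WT libraries (blue) and a black line at the mean of 3. The genotypes are farthest apart for *Eya1*, both *Rxrg* transcripts, *Sall3* and *Hr*, and they overlap for *Rxrb* and *Nr2f1*.

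The 2 transcripts of *Thrb* gave unlike values, and which of them bears on M opsin was not tested. NM_009380 had 5.63, 6.16 and 5.02 FPKM in *Nrl*-/- libraries, against 2.68, 3.63 and 3.56 FPKM in WT libraries. The genotypes did not overlap, and the transcript rose by a log2 fold change of 0.63 (SE 0.11; adjusted p = 0.0016). The more abundant NM_001113417 had 13, 11.9 and 11.6 FPKM in *Nrl*-/- libraries and 10.8, 11.0 and 11.6 FPKM in WT libraries. Its lowest *Nrl*-/- library and its highest WT library were 1 rounding step of the deposited values apart. The log2 difference of 0.12 had a 95% interval of -0.02 to 0.27 and did not pass (adjusted p = 0.16).

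NM_009380 made up 30.2%, 34.1% and 30.1% of the *Thrb* pair in *Nrl*-/- libraries and 19.9%, 24.9% and 23.6% in WT libraries. Each *Nrl*-/- share was above each WT share. A test of the ratio itself, fitted with limma over the isoform pairs of all genes, gave a log2 difference of 0.50 (SE 0.11; 95% interval 0.22 to 0.79). It did not pass after adjustment over 2997 pairs (adjusted p = 0.11). Of these pairs 1.47% passed. Unequal change of the 2 *Thrb* transcripts was therefore not called. Summed, *Thrb* came to 16.7 to 18.7 FPKM in *Nrl*-/- libraries and 13.5 to 15.1 FPKM in WT libraries, and the sum passed (log2 fold change 0.29, SE 0.07, adjusted p = 0.006). The fit of the sum was not repeated under other scalings or without each library.

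*Thra* encodes the alpha receptor, which most tissues make. Its transcript NM_178060 had 46.2, 45.2 and 43.0 FPKM in *Nrl*-/- libraries, against 50.6, 46.5 and 46.5 FPKM in WT libraries. The log2 difference of -0.09 had a 95% interval of -0.22 to 0.04 (adjusted p = 0.24). Under 3 scalings that bring the median of all genes near 0, *Thra* was called lower (adjusted p = 0.0074 to 0.025). It shares 263 exonic bases with *Nr1d1* on the opposite strand, and no strand setting was given for the counting. The highest *Nr1d1* transcript had 57.1 ± 5.59 FPKM in *Nrl*-/- retina and 66.7 ± 10.1 FPKM in WT retina (SD, n = 3 each; log2 difference -0.21, adjusted p = 0.15), and it too was called lower under the 3 scalings.

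*Rxrg*, the partner receptor that cones make, rose in both transcripts. NM_009107 had 14.9, 11.4 and 14.0 FPKM in *Nrl*-/- libraries, against 1.57, 1.23 and 1.73 FPKM in WT libraries. The lowest *Nrl*-/- library lay far above the highest WT library (log2 fold change 2.52, SE 0.11, adjusted p = 2.5e-07). NM_001159731 had 5.63, 8.58 and 7.46 FPKM in *Nrl*-/- libraries, against 1.04, 1.55 and 0.892 FPKM in WT libraries (log2 fold change 1.92, SE 0.15, adjusted p = 1.2e-05). *Nrl*-/- replicate 1 had the highest NM_009107 and the lowest NM_001159731 of its genotype, and replicate 2 the reverse. Summed, *Rxrg* varied less, from 20.0 to 21.5 FPKM in *Nrl*-/- libraries and from 2.61 to 2.78 FPKM in WT libraries. The ratio of the *Rxrg* transcripts differed by -0.60 on the log2 scale (SE 0.30; adjusted p = 0.46), which did not pass.

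*Rxra*, a broadly made partner receptor, was the member called lower. It had 7.17, 7.11 and 6.84 FPKM in *Nrl*-/- libraries, against 10.4, 9.48 and 8.65 FPKM in WT libraries. All *Nrl*-/- libraries were below all WT libraries, and the transcript fell by 0.38 on the log2 scale (SE 0.07; adjusted p = 0.0031). *Rxrb*, the remaining partner, had 14.5, 13.6 and 13.8 FPKM in *Nrl*-/- libraries and 14.5, 12.7 and 14.0 FPKM in WT libraries, so the genotypes overlapped. Its log2 difference was 0.02 with a 95% interval of -0.12 to 0.17.

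The makeup of the RXR family separated the genotypes. *Rxrg* made up 48.7%, 49.1% and 51% of the summed RXR FPKM in *Nrl*-/- libraries, against 9.5%, 11.1% and 10.4% in WT libraries. The mean difference was 39.2 percentage points, with an exact two-sided permutation p = 0.1, the smallest that 3 libraries against 3 can give. The RXR sum itself was 41.7 ± 0.84 FPKM in *Nrl*-/- retina and 25.9 ± 1.34 FPKM in WT retina (SD, n = 3 each). In the receptor pair, *Thrb* made up 28.4% ± 0.447 of *Thrb* plus *Thra* in *Nrl*-/- retina and 23.1% ± 1.87 in WT retina (SD, n = 3 each; exact permutation p = 0.1), a difference of 5.27 points that was 2.53 points with the highest transcript of each gene alone. The sum of the pair was 62.6 ± 2.64 FPKM in *Nrl*-/- retina and 62.3 ± 1.61 FPKM in WT retina.

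**Figure D2:**
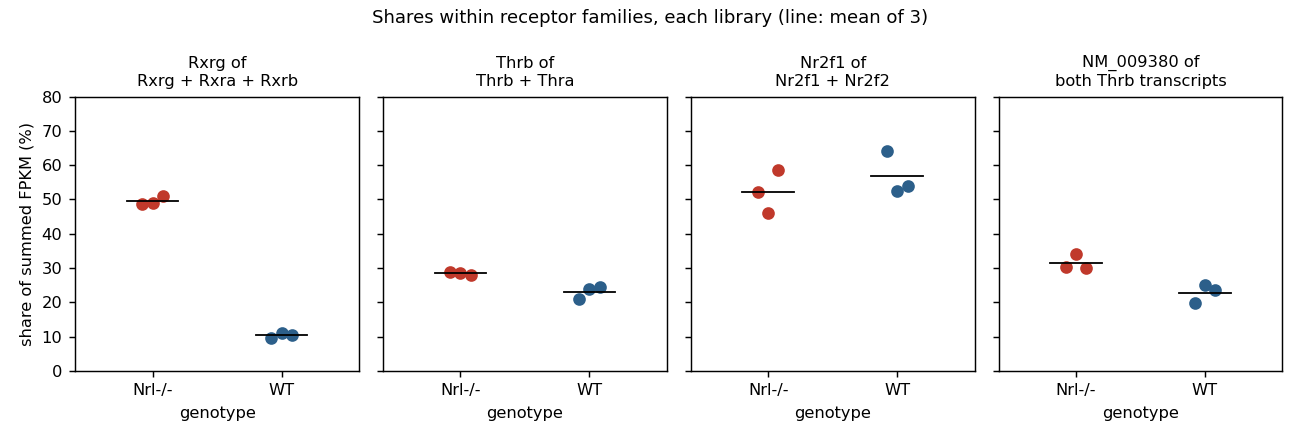
Share of summed FPKM, in percent, that 1 gene or transcript takes in its family, per library, with *Nrl*-/- left of WT and a line at the mean of 3. The *Rxrg* share is 48.7% to 51% in *Nrl*-/- libraries and 9.5% to 11.1% in WT libraries, the *Thrb* share differs by 5.27 points, and the *Nr2f1* shares overlap.

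Of all the members, *Eya1* differed the most. EYA1 is a transcriptional coactivator and phosphatase that works with homeodomain proteins of the sine oculis family. The transcript NM_010164 had 11.0, 11.1 and 12.4 FPKM in *Nrl*-/- libraries, against 0.464, 0.414 and 0.464 FPKM in WT libraries. The log2 fold change was 3.11 (SE 0.07; adjusted p = 4.1e-09), and mean FPKM was 25.7 times higher in *Nrl*-/- retina. No WT library reached the FPKM of 1 that the deposited table required in at least 1 library, so *Eya1* entered the table through its *Nrl*-/- libraries. With a pseudocount of 0.1 in place of 1 the log2 fold change was 4.41.

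*Sall3* encodes a zinc finger protein that mouse cones need for S opsin and that horizontal cells need to mature. Its transcript NM_178280 had 7.11, 6.57 and 6.73 FPKM in *Nrl*-/- libraries, against 1.16, 1.00 and 0.828 FPKM in WT libraries. It rose by a log2 fold change of 1.97 (SE 0.08; adjusted p = 2e-07), with wide separation of the genotypes. Of 4 measured horizontal cell markers *Calb1* was higher, *Prox1* was lower, and *Onecut1* and *Lhx1*, near 1 FPKM, did not pass. The sums, mostly *Calb1* and *Prox1*, were 45.5 to 48.3 FPKM in *Nrl*-/- libraries and 47.8 to 54.2 FPKM in WT libraries. Of 9 bipolar cell markers 5 were higher and 1 lower, with sums of 470 to 517 FPKM in *Nrl*-/- libraries and 310 to 347 FPKM in WT libraries. *Cabp5* alone had 162 ± 5.75 FPKM in *Nrl*-/- retina and 38.0 ± 3.52 FPKM in WT retina (SD, n = 3 each), and under the 3 scalings 3 of the 9 were higher. The part of these cell types in the *Sall3* value was not tested.

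*Hr* encodes the hairless corepressor, which binds thyroid hormone receptors and is itself induced by the hormone in brain. By the values used here it was the most abundant member in *Nrl*-/- retina. In the values that the authors pooled from another aligner, TopHat, *Thra* was above it there, at 110 FPKM against 84.8 FPKM in sum. The *Hr* transcript NM_021877 had 67.6, 67.1 and 52.8 FPKM in *Nrl*-/- libraries, against 18.0, 14.8 and 13.3 FPKM in WT libraries. *Nrl*-/- replicate 3 was the lowest of its genotype and still above every WT library. The log2 fold change was 1.96 (SE 0.12; adjusted p = 2.6e-06), and mean FPKM was 4.07 times higher in *Nrl*-/- retina.

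The COUP transcription factors *Nr2f1* and *Nr2f2* are orphan receptors that hold back S opsin in parts of the mouse retina. *Nr2f2*, transcript NM_009697, had 3.32, 3.99 and 3.06 FPKM in *Nrl*-/- libraries and 2.43, 2.97 and 2.56 FPKM in WT libraries. The genotypes were close but did not overlap, and the log2 fold change of 0.28 (SE 0.10) passed narrowly (adjusted p = 0.048). This call was lost under 8 of 16 alternatives, with adjusted p from 0.024 to 0.19 over all 16. The 8 were the linear model of each transcript on its own, the 3 scalings and leaving out *Nrl*-/- replicate 1 or 2 or WT replicate 1 or 3. *Nr2f1*, transcript NM_010151, had 3.63, 3.41 and 4.35 FPKM in *Nrl*-/- libraries and 4.35, 3.29 and 2.97 FPKM in WT libraries. The genotypes overlapped, and the log2 difference of 0.09 had a 95% interval of -0.19 to 0.36. *Nr2f1* shares 103 exonic bases with *A830082K12Rik* and 20 with *Gm8327*, both noncoding genes on the opposite strand. *Nr2f1* made up 52.3% ± 6.35 of the pair in *Nrl*-/- retina and 56.8% ± 6.37 in WT retina (SD, n = 3 each; exact permutation p = 0.4).

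The 9 cone markers, mostly opsin and phototransduction genes, had log2 fold changes of 2.81 to 4.2 with a median of 3.62. Of the 12 member transcripts, that of *Eya1* lay within this range and 11 lay below it. The choice of markers bears on this count, because the M opsin gene *Opn1mw* was not among them. *Opn1mw* had a log2 fold change of 1.37, below those of both *Rxrg* transcripts, *Sall3* and *Hr*. The scale also bears on the count, because the WT levels of *Rxrg* and *Sall3* were near 1 FPKM. With a pseudocount of 0.1 the cone markers ranged from 2.82 to 4.48, and the *Rxrg* transcript NM_009107, at 3.07, lay within their range. *Sall3* was at 2.67 on that scale.

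**Figure D3:**
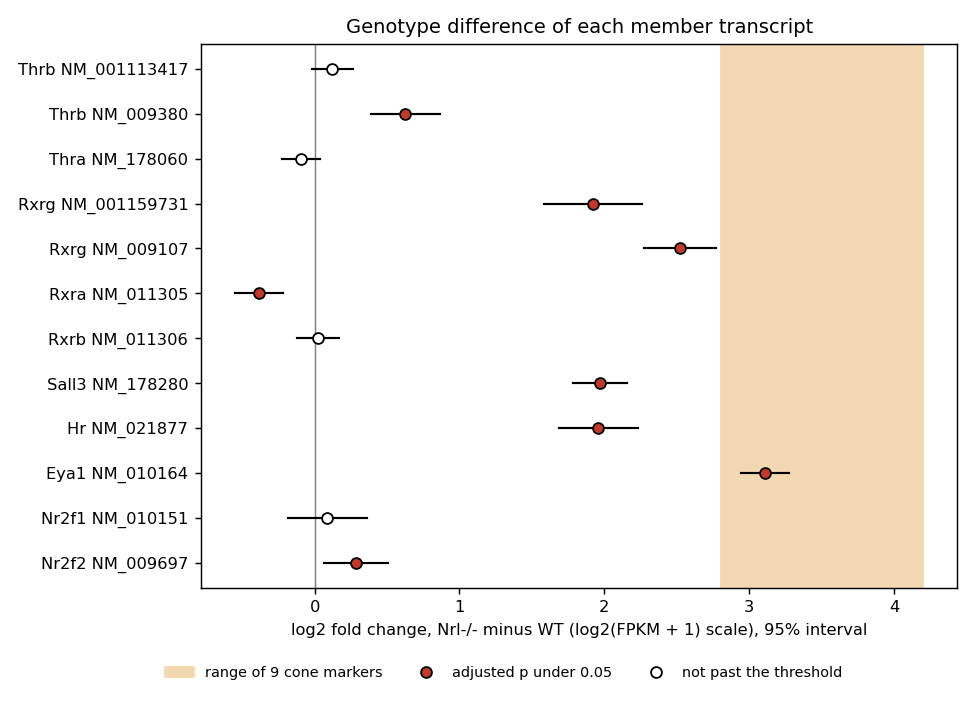
Log2 fold change of each member transcript, *Nrl*-/- minus WT on the log2(FPKM + 1) scale, with its 95% interval; filled points have an adjusted p under 0.05 and the shaded band spans the 9 cone markers (2.81 to 4.2). *Eya1* lies inside the band, the *Rxrg*, *Sall3* and *Hr* points lie between 1.92 and 2.52, and *Rxra* is the filled point below 0.

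The order of the genes by summed FPKM differed between the genotypes. It rests on the transcripts measured here. In the pooled TopHat values *Thra*, at 110 FPKM, was above *Hr*, at 84.8 FPKM, in *Nrl*-/- retina. In *Nrl*-/- retina *Hr* was highest at 62.5 ± 8.4 FPKM, followed by *Thra* at 44.8 ± 1.62, *Rxrg* at 20.7 ± 0.773, *Thrb* at 17.8 ± 1.03, *Rxrb* at 14.0 ± 0.435 and *Eya1* at 11.5 ± 0.739 FPKM (SD, n = 3). *Rxra* at 7.04 ± 0.178 and *Sall3* at 6.80 ± 0.279 FPKM overlapped, as did *Nr2f1* and *Nr2f2* at the low end. In WT retina *Thra* was highest at 47.9 ± 2.38 FPKM, and *Hr* at 15.4 ± 2.41, *Thrb* at 14.4 ± 0.838 and *Rxrb* at 13.7 ± 0.895 FPKM overlapped in turn. *Rxra* followed at 9.51 ± 0.873 and *Nr2f1* at 3.54 ± 0.723 FPKM, *Rxrg* and *Nr2f2* overlapped at 2.67 ± 0.0968 and 2.65 ± 0.282 FPKM, and *Sall3* and *Eya1* came last at 0.995 ± 0.165 and 0.447 ± 0.0288 FPKM. *Rxrg* thus ranked 3 of 10 in *Nrl*-/- retina and 7 of 10 in WT retina.

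The genes whose levels across the 6 libraries were most like those of 4 members were found by Euclidean distance on the log2(FPKM + 1) scale. Nearest to *Eya1* were *Abi3* at 0.50, with 10.5 FPKM in *Nrl*-/- retina and 0.415 FPKM in WT retina, and then *Bspry* and *Ermap*. Nearest to the *Rxrg* transcript NM_009107 were *Dusp23* at 0.41, with 13.5 FPKM in *Nrl*-/- retina and 1.29 FPKM in WT retina, and then *Klhl4* and *Cdkl1*. *Rgs22*, at 0.19, with 6.47 FPKM in *Nrl*-/- retina and 0.95 FPKM in WT retina, was nearest to *Sall3*, followed by *Cdk6* and *Ptpn13*. For *Thrb* NM_001113417 these were *Ube3a*, *Mbd1* and *Nhlh2*, at 0.06 to 0.09. The distance joins genes of like level and like difference and says nothing of shared control.

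Other genes of the pathway were counted in 7 lists, with the highest transcript of each gene. Of 12145 genes counted this way 38.6% were called, 28.3% higher and 10.2% lower, and 5 of the 10 member genes were higher and 1 lower. Genes that supply thyroid hormone, namely its transporters, carriers and deiodinases, mostly did not pass. Of 12 listed, 8 were measured. Under the 3 scalings 1 rose and 2 fell, and without them 1 rose and none fell (median log2 fold change 0.06). The one called was *Crym*, a cytosolic protein that binds the hormone, at 36.5 ± 6.48 FPKM in *Nrl*-/- retina and 24.6 ± 0.975 FPKM in WT retina (SD, n = 3 each; log2 fold change 0.54, adjusted p = 0.0038), and with the linear model of each transcript on its own it was not called (adjusted p = 0.063). The activating deiodinase *Dio2* had 10.6, 10.6 and 6.41 FPKM in *Nrl*-/- libraries and 7.17, 8.13 and 5.82 FPKM in WT libraries and did not pass (adjusted p = 0.18). *Dio1* and *Dio3* were not among the transcripts listed. The hormone carrier *Ttr*, which the pigment epithelium makes in large amounts, spanned 11.9 to 20.0 FPKM in *Nrl*-/- libraries and 4.94 to 36.3 FPKM in WT libraries.

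Among 16 coregulators that nuclear receptors recruit, 3 were higher, 6 lower and 7 did not pass, with a median log2 fold change of -0.11. The acetyltransferase *Kat2b* had 25.8 ± 0.698 FPKM in *Nrl*-/- retina and 16.9 ± 1.38 FPKM in WT retina (SD, n = 3 each; log2 fold change 0.59, adjusted p = 0.00014). The p160 coactivator *Ncoa3* did not pass, at a log2 difference of 0.21 (adjusted p = 0.12). The other p160 coactivators, *Ncoa2* and *Ncoa1*, were lower. *Ncoa2* had 9.68 ± 0.186 FPKM in *Nrl*-/- retina and 15.0 ± 0.891 FPKM in WT retina (SD, n = 3 each, log2 fold change -0.58, adjusted p = 9.1e-05). *Ncoa1* had 16.4 ± 0.482 FPKM in *Nrl*-/- retina and 22.2 ± 1.28 FPKM in WT retina (SD, n = 3 each, log2 fold change -0.41, adjusted p = 7e-04). The acetyltransferase *Ep300* was also lower (log2 fold change -0.32, adjusted p = 0.0082). With the linear model of each transcript on its own *Ep300* was not called (adjusted p = 0.056), and 2 coregulators were lower in place of 6. The corepressor *Ncor1* did not pass, at a log2 difference of -0.07.

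The listed genes that thyroid hormone induces in other tissues gave small differences. *Hr*, which the hormone induces in brain, was counted as a member and not in this list (log2 fold change 1.96). Of 8 listed 7 were measured, 4 were higher and none lower (median log2 fold change 0.31), and under the 3 scalings 2 were higher. *Thrsp*, named for its response to the hormone in liver, had 19.8 ± 1.29 FPKM in *Nrl*-/- retina and 15.2 ± 0.6 FPKM in WT retina (SD, n = 3 each; log2 fold change 0.35, adjusted p = 0.0024). *Mbp*, a myelin protein, rose by a log2 fold change of 0.31 (adjusted p = 0.0047), and both it and *Thrsp* passed under every alternative run. *Pcp2*, a Purkinje and bipolar cell protein, and *Me1*, malic enzyme, passed at log2 fold changes of 0.36 and 0.32 (adjusted p = 0.028 and 0.012) and were lost under the 3 scalings and the linear model of each transcript on its own. *Pcp2*, whose libraries overlapped, was also lost on leaving out *Nrl*-/- replicate 1 or 2 or WT replicate 1 or 3. *Klf9*, a direct target of the hormone in brain, had 33.1 ± 3.73 FPKM in *Nrl*-/- retina and 29.7 ± 2.02 FPKM in WT retina (SD, n = 3 each; adjusted p = 0.21).

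RXRs also pair with other receptors. In the retinoic acid list 11 of 15 genes were measured, 1 was higher and 2 lower. The retinal reductase *Dhrs3* had 3.47, 3.38 and 3 FPKM in *Nrl*-/- libraries, against 19.3, 18.2 and 18.4 FPKM in WT libraries (log2 fold change -2.20, adjusted p = 2.1e-08). The receptor *Rara* (log2 fold change -0.31, adjusted p = 0.04) and the dehydrogenase *Rdh10* (0.30, adjusted p = 0.039) each lost their call under several alternatives. Of the other partner receptors 8 of 11 were measured, with 2 higher and 3 lower. *Nr4a1*, an immediate early orphan receptor, had 27.7 ± 1.1 FPKM in *Nrl*-/- retina and 8.79 ± 1.26 FPKM in WT retina (SD, n = 3 each; log2 fold change 1.56, adjusted p = 2e-06). The fatty acid receptors *Ppara*, at 0.774 ± 0.0554 FPKM in *Nrl*-/- retina and 4.19 ± 0.237 FPKM in WT retina, and *Ppard*, at 7.57 ± 0.0594 FPKM in *Nrl*-/- retina and 12.9 ± 1.02 FPKM in WT retina, fell by 1.55 and 0.69 on the log2 scale (SD, n = 3 each; adjusted p = 6.3e-07 and 5.8e-05). *Nr1i3* was low in both genotypes, at 0.361 ± 0.132 FPKM in *Nrl*-/- retina and 0.9 ± 0.139 FPKM in WT retina (SD, n = 3 each). It fell by 0.48 (adjusted p = 0.0077), and only 1 library, of WT, reached 1 FPKM.

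Relatives of *Sall3*, *Eya1* and the COUP factors mostly did not pass: 11 of 18 were measured, 2 were higher and 1 lower (median log2 fold change 0.02). *Six6*, a homeodomain protein of the family that EYA proteins bind, had 36.8, 36.3 and 41.5 FPKM in *Nrl*-/- libraries, against 13, 13.1 and 12.8 FPKM in WT libraries (log2 fold change 1.48, adjusted p = 2.2e-07). *Eya3* had a log2 difference of 0.02 (adjusted p = 0.84), and *Eya2* and *Eya4* were not listed. *Sall2* fell by 0.25 on the log2 scale (adjusted p = 0.014), a call lost with the linear model of each transcript on its own and without *Nrl*-/- replicate 1, and *Sall1* and *Sall4* were not listed. *Six5*, near 1 FPKM or below, was called higher at the threshold itself and lost its call under 10 alternatives.

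Among cone opsins and other genes listed as regulators of cone pattern, 17 of 22 were measured, 4 were higher, 5 lower and 8 did not pass (median log2 fold change -0.06). The role of each listed regulator in cones or rods was not tested. S opsin, *Opn1sw*, had 2860, 2800 and 2590 FPKM in *Nrl*-/- libraries, against 161, 141 and 144 FPKM in WT libraries (log2 fold change 4.20, adjusted p = 6.8e-10). M opsin, *Opn1mw*, which was named after its values were seen, had 266, 268 and 259 FPKM in *Nrl*-/- libraries, against 100, 112 and 92.7 FPKM in WT libraries (log2 fold change 1.37, adjusted p = 9e-07). The paper places the estrogen-related receptor *Esrrb* among its largest falls, and it describes many of the lower genes as rod-specific. Here *Esrrb* fell to 1.57 ± 0.11 FPKM in *Nrl*-/- retina, against 66.7 ± 8.26 FPKM in WT retina (SD, n = 3 each, log2 fold change -4.71, adjusted p = 9.5e-10). *Rorb*, a receptor needed for rods and for S opsin, fell by 2.17 on the log2 scale (adjusted p = 1.8e-07), and *Mef2c*, a MADS box factor, by 2.36 (adjusted p = 6e-08). *Prdm1* and *Otx2* rose, at log2 fold changes of 1.79 and 0.65 (adjusted p = 1.2e-07 and 5.1e-05). *Samd7* and *Vax2* fell, at log2 fold changes of -1.35 and -0.98 (adjusted p = 0.0011 and 0.00034). The homeobox factor *Crx* had 176 ± 9.27 FPKM in *Nrl*-/- retina and 178 ± 8.46 FPKM in WT retina (SD, n = 3 each; log2 difference -0.02, adjusted p = 0.86).

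**Figure D4:**
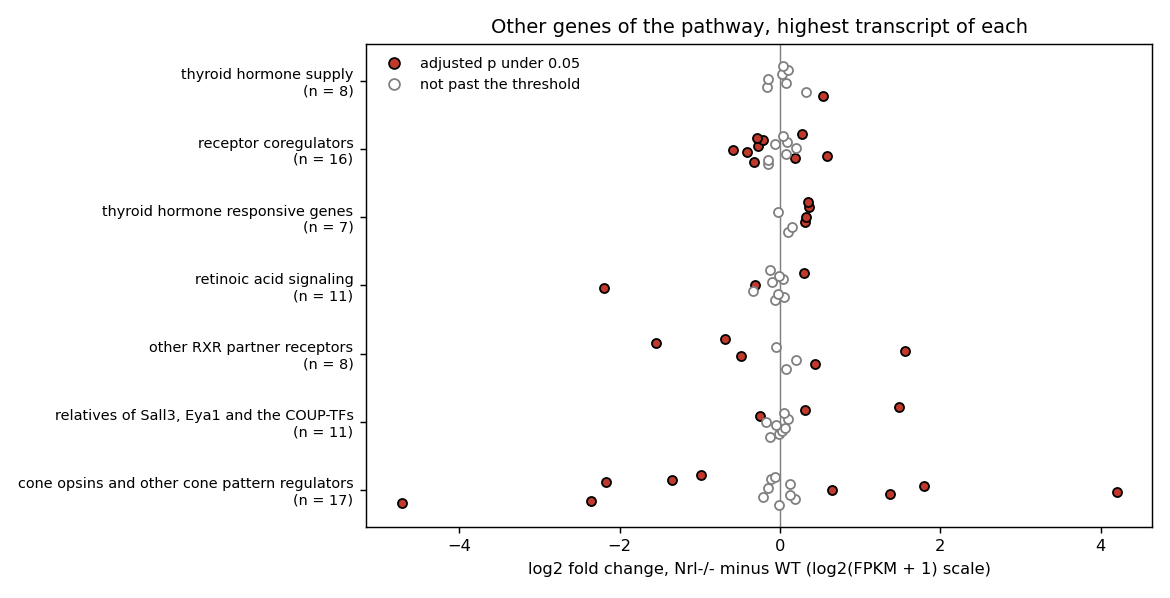
Log2 fold change, *Nrl*-/- minus WT on the log2(FPKM + 1) scale, of the highest transcript of each measured gene in 7 lists, filled where the adjusted p was under 0.05. The list of opsins and other pattern regulators spreads from -4.71 (*Esrrb*) to 4.2 (*Opn1sw*), while the thyroid hormone supply genes lie between -0.16 and 0.54.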

How the data were processed

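Retinal RNA of 3 *Nrl*-/- and 3 WT mice was sequenced by the authors, aligned with BWA to mm9 and quantified per RefSeq transcript in Partek, as the submitters' processing notes and the methods state. The deposited BWA tables hold log2 values, log2(FPKM + 1) per library to 2 decimals, and every transcript listed reaches 1 FPKM in 1 or more libraries. The deposited TopHat table holds 1 pooled FPKM per genotype, as the authors' value, and their fold changes and p-values, which were not used. No read counts were in these files, so depth sets no interval here.

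Genotypes were compared with limma 3.58.1 in R 4.3.3, with a trended prior variance and Benjamini-Hochberg adjustment over 15142 mRNA transcripts, isoform ratios over 2997 pairs, and family shares by exact permutation. On simulated data the fit recovered 38 of 50 transcripts changed 1.5-fold and 47 of 50 changed 2-fold, with 5 of 14942 unchanged ones called. Nearly all simulated transcripts were unchanged, whereas 36.8% were called in the libraries. The rate of false calls in the simulation therefore does not carry over to the libraries. Gene positions are those of GENCODE on NCBIM37, and promoters those of RefSeq, with entries for 6 of 10 members. Figures were drawn with matplotlib 3.10.9 in Python 3.11.15.

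Named are every member transcript, up to 4 called genes of each list with the largest changes, and the 3 genes most like *Thrb*, *Rxrg*, *Sall3* and *Eya1*. *Cabp5*, *Dio2*, *Ttr*, *Klf9*, *Ncor1*, *Eya3*, *Crx*, *Nr1d1* and *Opn1mw* were named after their values were seen. So were *Ncoa3*, *Prdm1*, *Otx2*, *Samd7*, *Vax2*, *Calb1*, *Prox1*, *Onecut1* and *Lhx1*. Members and lists were chosen with earlier results of these data known.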

Additional observations from a re-analysis of the deposited data

How the results depend on the processing

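Alternatives were pseudocounts of 0.1 and 0.5, 2 filters on low FPKM, a linear model of each transcript on its own, limma with an untrended prior, limma with a robust prior, 3 scalings (median-of-ratios, upper-quartile and quantile), a replicate block, FPKM summed per gene and leaving out each library. Of 202 values of member transcripts under these, 186 kept their direction and their side of the threshold, 8 lost the call, 3 gained it and 5 changed sign. The scalings moved the median log2 fold change of all transcripts by -0.09, -0.09 and -0.08, and the share of called transcripts that were higher was 52%, 52.1% and 52.3% in place of 72.7%. All mRNA transcripts higher came to 2463, 2466 and 2451 under the 3 scalings, and 2 member transcripts were lower, *Rxra* and *Thra*. *Rxrb*, called under none, changed sign to -0.0765, -0.0764 and -0.0892 under the scalings. The model of each transcript on its own called 11 pathway genes higher and 11 lower, in place of 17 and 17.

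Leaving out each library gave 6 to 7 member transcripts higher and 1 lower, 2784 to 4180 transcripts higher and 1122 to 1578 lower in all, 12 to 18 pathway genes higher and 13 to 19 lower. *Rxrb* ranged from -0.0267 to 0.0583, *Nr2f1* from -0.00333 to 0.21 and *Nr2f2* from 0.20 to 0.35. The *Thrb* isoform ratio stayed short of the threshold under every alternative (adjusted p = 0.081 to 0.25). The replicate numbers were not taken as pairs, since same-numbered libraries had residual correlations of 0.0286, 0.0237 and 0.124, and a replicate block gave 7 member transcripts higher and 1 lower, with 3973 higher and 1520 lower in all. Quantification by isoform rests on the authors' estimate, and without read counts the counting error of levels below 1 FPKM cannot be given.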

Other observations

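The TopHat table, in which the authors pooled the libraries of a genotype, gives 1 value per genotype and no replicate error. *Thrb* had 4 transcripts in it with 18.3 FPKM in *Nrl*-/- retina and 15.2 FPKM in WT retina in sum. The most abundant was nearly equal, at 9.78 FPKM in *Nrl*-/- retina and 9.57 FPKM in WT retina, as was another at a ratio of 1.03. The remaining ones were higher in *Nrl*-/- retina, at ratios of 1.43 and 2.75. The 3 *Rxrg* transcripts summed to 26.7 FPKM in *Nrl*-/- retina and 3.76 FPKM in WT retina, the 4 of *Hr* to 84.8 FPKM in *Nrl*-/- retina and 21.2 FPKM in WT retina, and the 3 of *Eya1* to 16.2 FPKM in *Nrl*-/- retina and 0.596 FPKM in WT retina. *Sall3* had 6.22 FPKM in *Nrl*-/- retina and 0.915 FPKM in WT retina. The 5 *Thra* transcripts summed to 110 FPKM in *Nrl*-/- retina and 117 FPKM in WT retina, with ratios to WT of 0.77 to 0.96. *Rxrb* had sums of 16.4 FPKM in *Nrl*-/- retina and 16.6 FPKM in WT retina, *Nr2f1* 8.99 FPKM in *Nrl*-/- retina and 8.55 FPKM in WT retina, and *Nr2f2* 5.26 FPKM in *Nrl*-/- retina and 4.01 FPKM in WT retina. The TopHat loci of *Thra* and *Nr2f1* were wider than the annotated genes, ending at chr11:98636647 and chr13:78375825 with gene ends at 98630320 and 78339018 (NCBIM37). *Rxra* had no entry under its symbol.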
